A study of Saccharomyces cerevisiae with 6 samples.

Results

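Small nucleolar RNA (snoRNA) genes were taken from the count table of the series as the rows with the biotype snoRNA, which gave 77 of 7126 rows. RNA was compared between 3 samples of a *kcs1*-S537A,S646A strain and 3 samples of a strain with wild-type *KCS1*. Both are diploid *Saccharomyces cerevisiae* strains of the Siga1278b (Σ1278b) background in which both chromosomal copies of *KCS1* were deleted. The deletion was complemented by a pRS416 plasmid, which carries *URA3*, with either the *kcs1* allele whose product has alanine in place of both serines or the wild-type gene. *KCS1* encodes an inositol polyphosphate kinase, and the allele lacks residues phosphorylated by the AMP-activated kinase Snf1. Each sample was a culture grown from a single colony in low-nitrogen medium for 20 h by the titles, or 18 to 20 h by the design text. Each allele is represented by colonies of a single strain, so that the allele and any other difference between the strains cannot be told apart. The *KCS1* counts do not check the labels, since the alleles differ by codons only.

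snoRNAs are stable noncoding RNAs of the nucleolus that guide the modification and cleavage of ribosomal RNA (rRNA). Box C/D snoRNAs pair with rRNA next to a box D (CTGA in the gene) and direct methylation of the ribose, carried out by Nop1. Box H/ACA snoRNAs fold into hairpins with an ACA near the 3′ end and direct conversion of uridine to pseudouridine by Cbf5. A few, among them U3, U14 (snR128), snR30 and snR10, act in the cleavage of the rRNA precursor. Most yeast snoRNAs are transcribed from their own promoters, and others are cut out of introns of protein-coding genes or from transcripts that hold several snoRNAs. Mature snoRNAs carry no poly(A) tail, while their precursors and snoRNAs marked for decay by the nuclear exosome can be polyadenylated for a time.

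By the descriptions in the files and general knowledge, 47 of the 77 rows were box C/D RNAs and 29 were box H/ACA RNAs. The remaining row, *NME1*, is the RNA of RNase MRP, which cleaves the rRNA precursor and is not a guide. Of all members, 8 lay in introns of host genes and 17 in 5 polycistronic clusters, and 4 overlapped another gene outside an intron. All 77 rows have identical coordinates in the R64 genome, whose sequence is that of another strain background. Spans ran over 78 to 1004 bases with a median of 126.

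The sequences of the members on which the comparison turned are shown from the R64 genome of RefSeq, as the strand of the RNA, 5′ to 3′. For box C/D members, capitals mark box C, the stretch complementary to rRNA and box D. snR66 was the member called between the strains, and it lies on chromosome XIV, bases 586090 to 586175, plus strand. snR39 (chromosome VII, 365163 to 365251, minus strand) and snR59 (chromosome XVI, 173827 to 173904, plus strand) are shown because both guide the same rRNA site from introns of paralogous ribosomal protein genes, *RPL7A* and *RPL7B*. snR47 (chromosome IV, 541602 to 541700, minus strand) has 2 guide stretches and a log2 fold change that was among the highest.
snR66: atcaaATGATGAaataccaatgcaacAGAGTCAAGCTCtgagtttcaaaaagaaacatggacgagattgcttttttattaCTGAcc
snR39: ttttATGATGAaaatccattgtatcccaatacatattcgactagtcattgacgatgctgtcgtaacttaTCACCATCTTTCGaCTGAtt
snR59: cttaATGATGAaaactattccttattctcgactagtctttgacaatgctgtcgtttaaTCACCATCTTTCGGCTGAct
snR47: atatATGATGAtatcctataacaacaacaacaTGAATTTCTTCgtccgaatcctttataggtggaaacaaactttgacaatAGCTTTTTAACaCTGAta

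The guide of snR66 spans 12 bases and pairs with 25S rRNA positions 2412 to 2423, around its methylated base at position 2417. The guide of snR39 (13 bases) and that of snR59 (14 bases) end at the same rRNA base, position 816, and both cover their shared target at position 807 of 25S rRNA. In snR47 the stretch nearest the 3′ end covers position 619 of 18S rRNA, and the other stretch covers position 2220 of 25S rRNA. The rRNA around the target of snR66 is modified by other members too, since snR11 is assigned the uridine at position 2416 and snR78 the ribose at position 2421 of 25S rRNA.

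A further 3 members are shown because their scaled counts were higher in each *kcs1*-S537A,S646A sample than in any wild-type sample. snR4 (chromosome V, 424698 to 424883, plus strand) is a box C/D RNA that guides acetylation of 18S rRNA, and its box D is in capitals. snR11 (chromosome XIII, 652275 to 652532, plus strand) and snR42 (chromosome XI, 559016 to 559366, minus strand) are box H/ACA RNAs that guide pseudouridylation of 25S rRNA at positions 2416 and 2975, and their ACA is in capitals.
snR4: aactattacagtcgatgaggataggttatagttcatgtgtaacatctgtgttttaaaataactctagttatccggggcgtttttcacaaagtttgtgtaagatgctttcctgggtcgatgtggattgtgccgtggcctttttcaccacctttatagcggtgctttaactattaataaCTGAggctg
snR11: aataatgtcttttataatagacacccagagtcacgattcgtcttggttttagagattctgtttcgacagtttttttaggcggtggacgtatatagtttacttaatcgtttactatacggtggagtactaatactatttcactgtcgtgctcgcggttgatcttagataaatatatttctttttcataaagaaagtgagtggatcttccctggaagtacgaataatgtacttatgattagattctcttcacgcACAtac
snR42, last 60 bases: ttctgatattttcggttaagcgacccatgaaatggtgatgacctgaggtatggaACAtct

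The class motifs were searched on the RNA strand in the first and last 20 bases of each row. A box C (ATGATGA or GTGATGA) was in the first 20 bases of 33 of 47 box C/D rows (70.2%), against 0.686% of 6994 other nuclear genes. A CTGA was in the last 20 bases of 45 of the 47 (95.7%), against 9.35% of the other genes. An ACA that ended 3 bases before the end of the row was present in 14 of 29 box H/ACA rows (48.3%), against 1.30% of the other genes. The descriptions in the files assign 55 rRNA positions to box C/D members, and an unbroken stretch of at least 9 bases antisense to the rRNA across the assigned position was found for 42 of them. These stretches were 9 to 16 bases long with a median of 11. In 29 of the 42 a CTGA began 5 bases past the base opposite the assigned position, the spacing known for box C/D guides. The bases between were not required to pair. A search for such letters is a description of the sequences, and a missing match says only that they are not in the window as spelled.

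The libraries were made from RNA selected on poly-T beads and from cDNA of preferentially 370 to 420 bases. The paper describes this size selection after adapter ligation and does not say whether the size includes adapters. Gene lengths thus cannot be compared directly with it. The genomic span was below 370 bases for 71 of the 77 rows. snR17a and snR17b have longer spans (490 and 462 bases), but the gene lengths given for them are 333 and 332 bases. The values below are therefore for snoRNA sequence in such libraries, and mature snoRNA and longer or polyadenylated precursors cannot be told apart. Total counts were 20529351 to 22701020 in *kcs1*-S537A,S646A samples and 17950923 to 20822332 in wild-type samples, and snoRNA rows held 0.0317 to 0.0498% of them. snoRNA counts summed to 7275, 10767 and 8104 in *kcs1*-S537A,S646A samples, against 6961, 6552 and 6590 in wild-type samples. As CPM, which scale the counts to the library size with TMM factors, the sums were 379.92, 478.19 and 370.96 in *kcs1*-S537A,S646A samples, against 380.03, 346.93 and 313.45 in wild-type samples. The sums overlapped between the strains, and the highest was that of *kcs1*-S537A,S646A replicate 2. That sample also had the highest CPM of *KCS1* (797, against 272 to 367 in the other 5 samples), of *URA3* and of the telomerase RNA *TLC1*. The part of these differences in the snoRNA values was not tested.

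Of the 77 rows, 55 had 10 or more counts in every sample, and 65 passed the filter on low counts and were tested. The 12 rows that were not tested comprised snR10, snR45, snR53 and snR73 and 8 others with at most 17 counts in any sample. snR10, an H/ACA RNA of early rRNA cleavage, had 12, 3 and 7 counts in *kcs1*-S537A,S646A samples, against 5, 6 and 10 in wild-type samples. It shares 216 of its 245 bases with the open reading frame *YGL088W* on the same strand, which itself had at most 11 counts in any sample. How reads common to both were counted was not tested, and they may be missing from the counts of snR10. snR45, a box C/D RNA of 18S rRNA acetylation, had 5, 5 and 10 counts in *kcs1*-S537A,S646A samples, against 10, 2 and 12 in wild-type samples. snR53 had 0, 3 and 0 counts in *kcs1*-S537A,S646A samples and 0 in each wild-type sample, so that no fold change can be given. These levels were too low to compare the strains.

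Levels per length, given by the authors as FPKM, spanned more than 2 orders of magnitude among the members. The median over the 77 rows was 10.8 FPKM in *kcs1*-S537A,S646A samples and 8.85 FPKM in wild-type samples, below the medians of 43.6 and 44.3 FPKM of the protein-coding genes tested. snR44, which guides pseudouridylation from an intron of *RPS22B*, averaged 153.8 ± 33.5 FPKM in *kcs1*-S537A,S646A samples and 122.5 ± 17.4 FPKM in wild-type samples (SD, n = 3 each). The next levels in *kcs1*-S537A,S646A samples were 138.5 ± 23.8 FPKM for snR39, 129.9 ± 30.9 FPKM for snR86 and 129.2 ± 5.57 FPKM for snR4, against 88.9 ± 12.6, 104.5 ± 14.6 and 103.4 ± 1.39 FPKM in wild-type samples. Among these 4 members, snR44 was above snR86 in every sample, while the other pairs changed order between *kcs1*-S537A,S646A samples. The order was not tested. U3, the RNA of the small subunit processome and one of the most abundant snoRNAs of a yeast cell, stood near the median of the members in these libraries. Its copy snR17a averaged 12.6 ± 4.93 FPKM in *kcs1*-S537A,S646A samples and 7.14 ± 1.66 FPKM in wild-type samples, and snR17b averaged 10.8 ± 4.15 and 8.55 ± 2.12 FPKM. The copies share 91.6% of bases over 345 aligned bases, and snR17a shares 78 bases with *IRC13* on the same strand. How common reads were counted was not tested, and they may be missing from the levels of both copies.

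The 8 intronic members had a median of 41.3 FPKM in *kcs1*-S537A,S646A samples and 39.0 FPKM in wild-type samples. The 17 members of clusters had medians of 13.6 and 9.07 FPKM, and the 52 independent members 9.44 and 7.70 FPKM, in the same order of strains. What part of the intronic values came from unspliced host transcripts was not tested. The 6 members with a genomic span of 370 bases or more had medians of 23.7 and 17.7 FPKM, against 10.1 and 8.85 FPKM for the 71 with shorter spans. The 6 include snR17a and snR17b, whose gene lengths are 333 and 332 bases. Length selection of the cDNA and transcript level cannot be told apart in that difference.

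**Figure D1:**
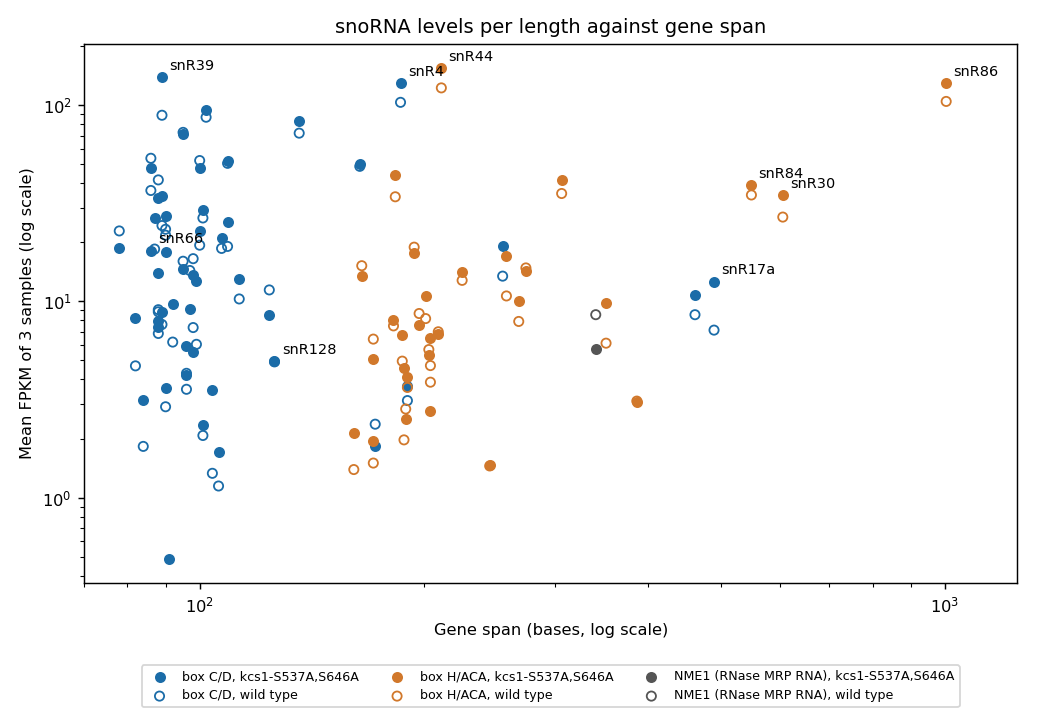
Mean FPKM over 3 samples (y axis, log scale) of each snoRNA row against its span in bases (x axis, log scale), with *kcs1*-S537A,S646A samples as filled and wild-type samples as open symbols, blue for box C/D, orange for box H/ACA and grey for *NME1*. snR44, snR39, snR86 and snR4 stand highest in both strains, while the filled and open symbols of most rows lie close together, and snR53 has no open symbol because its wild-type value is 0.

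A few rows held most of the counts. snR86, the longest member, which guides pseudouridylation of 25S rRNA, took 28.1 to 34.8% of all snoRNA counts of a sample. Its CPM was 112.02, 166.19 and 113.06 in *kcs1*-S537A,S646A samples, against 112.90, 114.32 and 87.95 in wild-type samples. The groups overlapped, and the highest value was again that of *kcs1*-S537A,S646A replicate 2 (log2 fold change 0.31, adjusted p = 0.36 by edgeR). With snR44, snR4, snR84 and snR30 it made up 54.3 to 57.6% of snoRNA counts in *kcs1*-S537A,S646A samples and 51.0 to 56.2% in wild-type samples. snR84 had 22.3, 26.6 and 15.7 CPM in *kcs1*-S537A,S646A samples, against 21.3, 19.1 and 17.2 CPM in wild-type samples, which overlapped.

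Whether the allele changed snoRNA levels was asked with edgeR's quasi-likelihood test over 6083 genes, with Benjamini-Hochberg adjustment. At an adjusted p below 0.05, 1 of the 65 tested members was lower in the *kcs1*-S537A,S646A strain and 0 were higher, against 4.67% of all genes tested that were lower and 0.986% that were higher (5.66% in all). DESeq2 called 2 of 77 members (snR39 higher and snR66 lower). With limma-trend on log2 FPKM, 5 of 65 were called (snR4, snR11, snR42 and snR47 higher and snR66 lower). The shares of all genes given here are those of edgeR and are no background for these counts. DESeq2 called more of all genes than edgeR, and the share for limma-trend is not given. At an unadjusted p below 0.05, 7 members were higher (10.8%) and 1 was lower (1.54%), against 8.24% and 11.9% of all genes (20.1% in either direction). Outside chromosome XIV, described below, 8.81% of genes were higher and 6.85% lower by that criterion, and 7 and 0 of the 60 members tested there. The log2 fold change was above 0 for 41 of 65 members (63.1%), against 53.2% of all genes. The median log2 fold change of the members was 0.17, against 0.01 for all genes. Without *kcs1*-S537A,S646A replicate 2 that median was 0.08, and without wild-type replicate 2 it was 0.11.

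The members were measured less precisely than other genes. Their median standard error was 0.30 on the log2 scale, against 0.11 over all genes, and their median biological coefficient of variation was 0.182, against 0.110. Per sample, the members' median log2 difference from the mean of the wild-type samples was 0.06, 0.23 and 0.08 in *kcs1*-S537A,S646A samples, against 0.11, -0.05 and -0.04 in wild-type samples. These medians overlapped between the strains.

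The medians of both classes of guide lay near that of all members. For the 38 tested box C/D members the median was 0.16 (log2 fold change), with 25 above 0 and 1 called lower by edgeR. The 26 tested box H/ACA members had a median of 0.18, with 16 above 0 and 0 called by edgeR (3 were higher at an unadjusted p below 0.05), while DESeq2 called 0 and limma-trend called snR11 and snR42. The median was 0.04 for the 8 intronic members, 0.04 for the 15 tested members of clusters and 0.20 for the 42 other members.

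**Figure D2:**
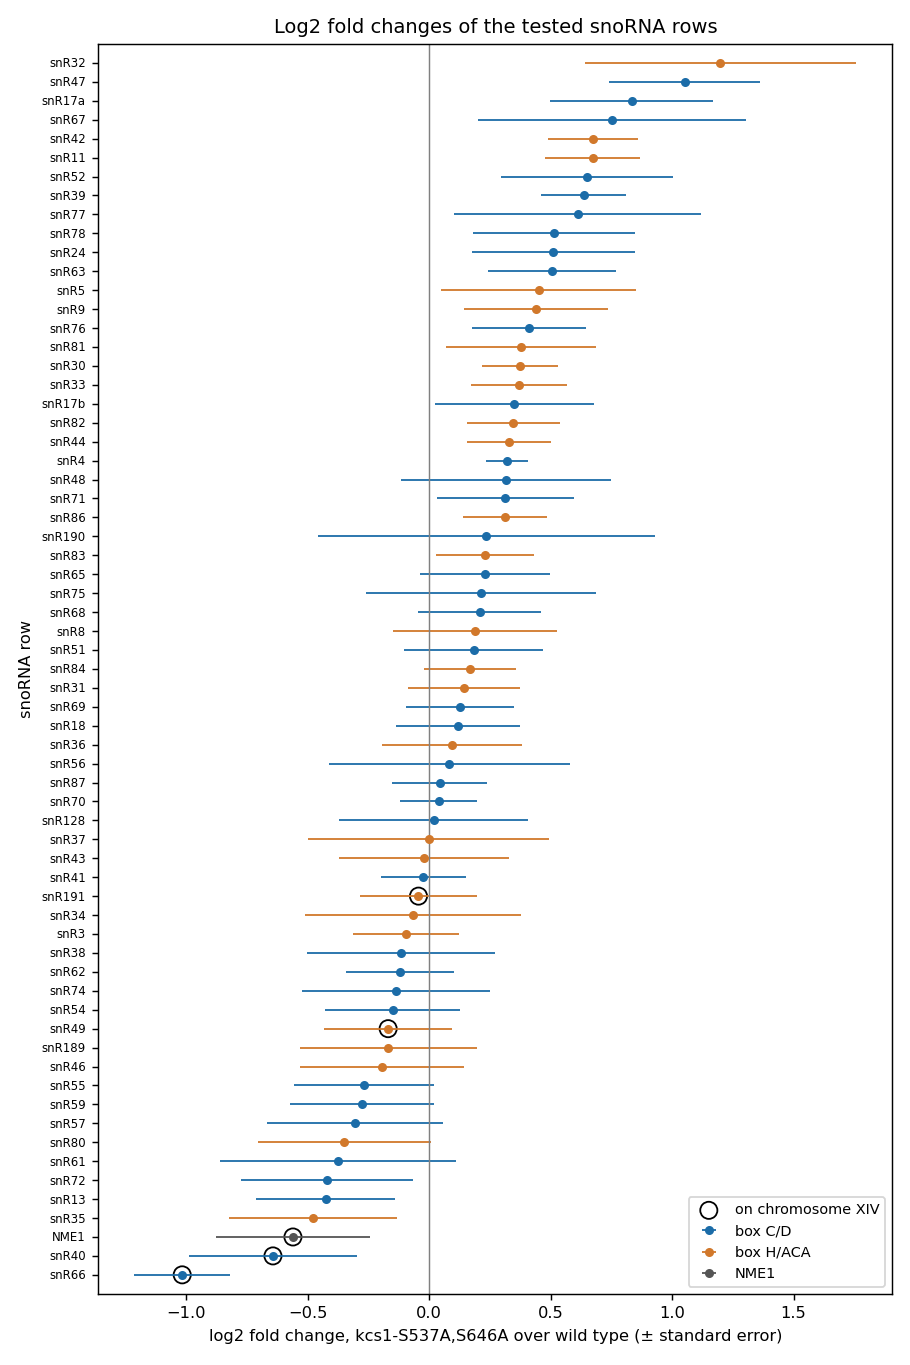
Log2 fold change of *kcs1*-S537A,S646A over wild type (x axis) with its standard error (bars) for the 65 tested snoRNA rows, ordered by value, blue for box C/D, orange for box H/ACA and grey for *NME1*, with rows on chromosome XIV circled. Of all rows, 41 lie above 0, the 5 circled rows all lie below 0, and snR66 at -1.02 is the only row called by edgeR.

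snR66, which guides methylation of 25S rRNA at position 2417, fell in the *kcs1*-S537A,S646A strain. It had 31, 32 and 36 counts in *kcs1*-S537A,S646A samples, against 58, 61 and 65 counts in wild-type samples. Scaled, these were 1.62, 1.42 and 1.65 CPM, against 3.17, 3.23 and 3.09 CPM. All values of the *kcs1*-S537A,S646A strain were below all wild-type values, with a log2 fold change of -1.02 (SE 0.20, adjusted p = 0.023 by edgeR).

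This member lies on chromosome XIV, whose transcripts were lower as a group in the *kcs1*-S537A,S646A strain. Of 407 tested genes on that chromosome, 387 had a log2 fold change below 0 and 57.2% were called lower, with a median of -0.52. In the *kcs1*-S537A,S646A samples its genes had a median log2 difference of -0.51, -0.53 and -0.52 from the mean of the wild-type samples, against values between -0.01 and 0.01 in wild-type samples. snR66 stood at the low end of this distribution, with 6 of the 407 genes lower. With an offset per sample that set the chromosome's median to that of the others, the log2 fold change of snR66 was -0.50 (adjusted p = 0.27 by edgeR), and it was no longer called. It was also no longer called when any wild-type sample was left out, with adjusted p-values of 0.10 to 0.12 by edgeR. No member lay on chromosome VI, whose genes had a median log2 difference of -0.88 in *kcs1*-S537A,S646A replicate 1. A lower dose of the chromosome and a change of single genes cannot be told apart here.

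Genes next to snR66 had values in the same direction. *NME1*, whose end lies 163 bases upstream on the same strand, had 1.41, 2.40 and 2.06 CPM in *kcs1*-S537A,S646A samples, against 4.09, 2.17 and 2.47 CPM in wild-type samples. Its values overlapped between the strains (log2 fold change -0.56, adjusted p = 0.37 by edgeR). *KSH1*, a small gene of the early secretory pathway that ends 426 bases downstream on the other strand, fell by 0.45 on the log2 scale (adjusted p = 0.021 by edgeR). *SSN8*, which encodes the cyclin C of the Mediator kinase module upstream of *NME1*, also fell by 0.45 (adjusted p = 0.023 by edgeR). Neither was called with the offset, and both lost the call when any wild-type sample was left out, with adjusted p-values by edgeR of up to 0.119 for *KSH1* and 0.137 for *SSN8*. *KSH1* also lost it without *kcs1*-S537A,S646A replicate 3 (adjusted p = 0.0545 by edgeR).

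The remaining members on chromosome XIV were below 0 but not called by edgeR, and the sign of snR49 and snR191 was not stable. snR40, which guides methylation of both rRNAs, had 1.10, 0.84 and 0.73 CPM in *kcs1*-S537A,S646A samples, against 1.80, 1.48 and 0.90 CPM in wild-type samples (log2 fold change -0.64, adjusted p = 0.35 by edgeR). snR49, which guides pseudouridylation of both rRNAs, had 2.25, 2.89 and 1.56 CPM in *kcs1*-S537A,S646A samples, against 2.40, 2.70 and 2.43 CPM in wild-type samples (log2 fold change -0.17). snR191, a pseudouridylation guide in an intron of *NOG2*, had 3.60, 5.11 and 3.07 CPM, against 4.80, 3.81 and 3.57 CPM in wild-type samples (log2 fold change -0.04). The values of each of these members overlapped between the strains. snR49 and snR191 stood near the upper end of the chromosome, with 375 and 385 of the 407 genes lower. The host *NOG2* was at -0.28 (adjusted p = 0.27 by edgeR), and its values were lower without overlap between the strains. The genes on either side of *NOG2* (*POP2* and *ESF2*) fell by 0.61 and 0.60 (adjusted p = 0.0041 and 0.0060 by edgeR). With the offset, snR191 was at 0.48 and snR49 at 0.35, and with a sample left out they ranged from -0.29 to 0.11 and from -0.41 to 0.04. With the offset, *POP2* and *ESF2* were at -0.09 and -0.08 and were not called.

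**Figure D3:**
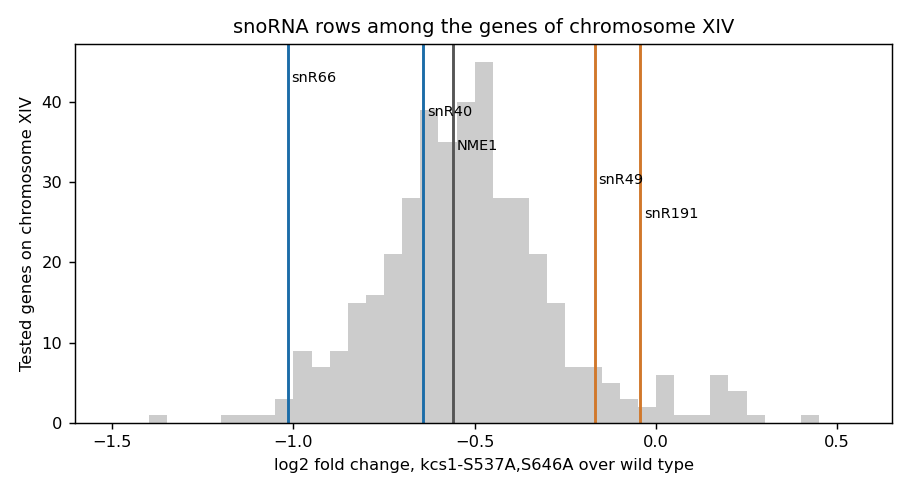
Histogram of the log2 fold changes of *kcs1*-S537A,S646A over wild type (x axis) of the 407 tested genes on chromosome XIV (y axis, number of genes), with the 5 snoRNA rows of the chromosome as vertical lines, blue for box C/D, orange for box H/ACA and grey for *NME1*. snR66 at -1.02 lies at the low end, snR40 and *NME1* lie near the median of -0.52, and snR49 and snR191 lie near the upper end.

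Of the members with higher values in the *kcs1*-S537A,S646A strain, none passed the adjusted threshold by edgeR. DESeq2 called snR39 (adjusted p = 0.018), and limma-trend on log2(FPKM + 1) called snR42 (0.018), snR47 (0.019), snR11 (0.042) and snR4 (0.047). The groups did not overlap for 6 higher members (9.23%) and for 1 lower member (1.54%), against 11.8% and 14.8% of all genes tested. snR4 had 24.02, 25.05 and 23.03 CPM in *kcs1*-S537A,S646A samples, against 19.55, 19.27 and 18.93 CPM in wild-type samples (log2 fold change 0.32, SE 0.09, adjusted p = 0.086 by edgeR). Its values did not overlap, and it had the smallest standard error of any tested member. *RPS26B*, a ribosomal protein gene that ends 386 bases upstream on the same strand, was at 0.39 (log2 fold change, adjusted p = 0.26 by edgeR).

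snR39 had 14.5, 12.3 and 10.3 CPM in *kcs1*-S537A,S646A samples, against 8.52, 6.62 and 8.61 CPM in wild-type samples (log2 fold change 0.64, SE 0.17, adjusted p = 0.086 by edgeR). Its partner at the same rRNA site, snR59, had 0.99, 1.69 and 1.69 CPM in *kcs1*-S537A,S646A samples, against 2.07, 1.85 and 1.43 CPM in wild-type samples, with a log2 fold change of -0.28 (adjusted p = 0.66 by edgeR). The values of snR39 did not overlap between the strains, whereas those of snR59 did. The printed sequences share 86.3% of the bases over an aligned stretch of 51 bases, and how reads common to both were assigned was not tested. Whether the fold changes of these members differ from each other was not tested.

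snR42 had 3.50, 3.15 and 3.66 CPM in *kcs1*-S537A,S646A samples, against 2.24, 2.17 and 2.05 CPM in wild-type samples (log2 fold change 0.68, SE 0.18, adjusted p = 0.085 by edgeR). *KTR2*, a mannosyltransferase gene 61 bases from its end on the other strand, had a log2 fold change of 0.01. snR47 had 30, 25 and 24 counts in *kcs1*-S537A,S646A samples, against 11, 10 and 14 counts in wild-type samples, or 1.57, 1.11 and 1.10 CPM against 0.60, 0.53 and 0.67 CPM (log2 fold change 1.05, SE 0.31, adjusted p = 0.10 by edgeR). Neither member overlapped between the strains.

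Both snR11 and snR82 were singled out after their values were seen. snR11 had 4.91, 4.71 and 3.57 CPM in *kcs1*-S537A,S646A samples, against 2.73, 2.91 and 2.62 CPM in wild-type samples (log2 fold change 0.67, SE 0.19, adjusted p = 0.10 by edgeR). *CMC4*, which encodes a mitochondrial intermembrane space protein and ends 61 bases from snR11 on the other strand, had a log2 fold change of 0.61 (adjusted p = 0.12 by edgeR). The strand setting of the counting is not given in the sources used here, and without strand, reads that run from one gene into the other cannot be assigned. snR82, a guide of 3 pseudouridines of 25S rRNA, had 2.72, 2.71 and 2.65 CPM in *kcs1*-S537A,S646A samples, against 2.24, 2.17 and 1.95 CPM in wild-type samples (log2 fold change 0.35, adjusted p = 0.36 by edgeR).

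Among the RNAs of rRNA cleavage, snR30 had 20.9, 18.3 and 24.1 CPM in *kcs1*-S537A,S646A samples, against 19.3, 15.9 and 13.7 CPM in wild-type samples (log2 fold change 0.37, SE 0.16, adjusted p = 0.24 by edgeR). The U3 copy snR17a had 2.45, 4.44 and 5.72 CPM in *kcs1*-S537A,S646A samples, against 2.84, 2.54 and 1.76 CPM in wild-type samples (log2 fold change 0.83, SE 0.33, adjusted p = 0.22 by edgeR). The other copy, snR17b, had 2.09, 4.80 and 3.89 CPM in *kcs1*-S537A,S646A samples, against 3.66, 2.54 and 2.33 CPM in wild-type samples (log2 fold change 0.35, adjusted p = 0.60 by edgeR). Without *kcs1*-S537A,S646A replicate 1 the log2 fold change of snR17a was 1.10 and passed the threshold (adjusted p = 0.0499 by edgeR). All 3 overlapped between the strains, and *kcs1*-S537A,S646A replicate 1 was the lowest of its group for both copies of U3. The copies share 91.6% of bases over 345 aligned bases, so that their separate values are uncertain, and snR17a also shares 78 bases with *IRC13* on the same strand, which had at most 14 counts in any sample. U14 (snR128) had 9, 14 and 17 counts in *kcs1*-S537A,S646A samples, against 15, 8 and 13 counts in wild-type samples, with a log2 fold change of 0.02 and an SE of 0.39.

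The highest log2 fold change of the 65 tested members was that of snR32, an H/ACA RNA with 7, 27 and 22 counts in *kcs1*-S537A,S646A samples, against 3, 8 and 11 counts in wild-type samples. Its log2 fold change of 1.20 had an SE of 0.56 (adjusted p = 0.29 by edgeR), and its groups overlapped. snR67, a box C/D RNA of the snR67-snR53 transcript, had 18, 17 and 7 counts in *kcs1*-S537A,S646A samples, against 4, 6 and 13 in wild-type samples (log2 fold change 0.75, SE 0.55). snR52, whose gene is transcribed by RNA polymerase III, had 15, 20 and 22 counts in *kcs1*-S537A,S646A samples, against 9, 15 and 9 in wild-type samples (log2 fold change 0.65, adjusted p = 0.36 by edgeR). At the other end, snR35 had a log2 fold change of -0.48 (SE 0.35) and snR13 one of -0.43 (SE 0.29), and both overlapped between the strains.

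**Figure D4:**
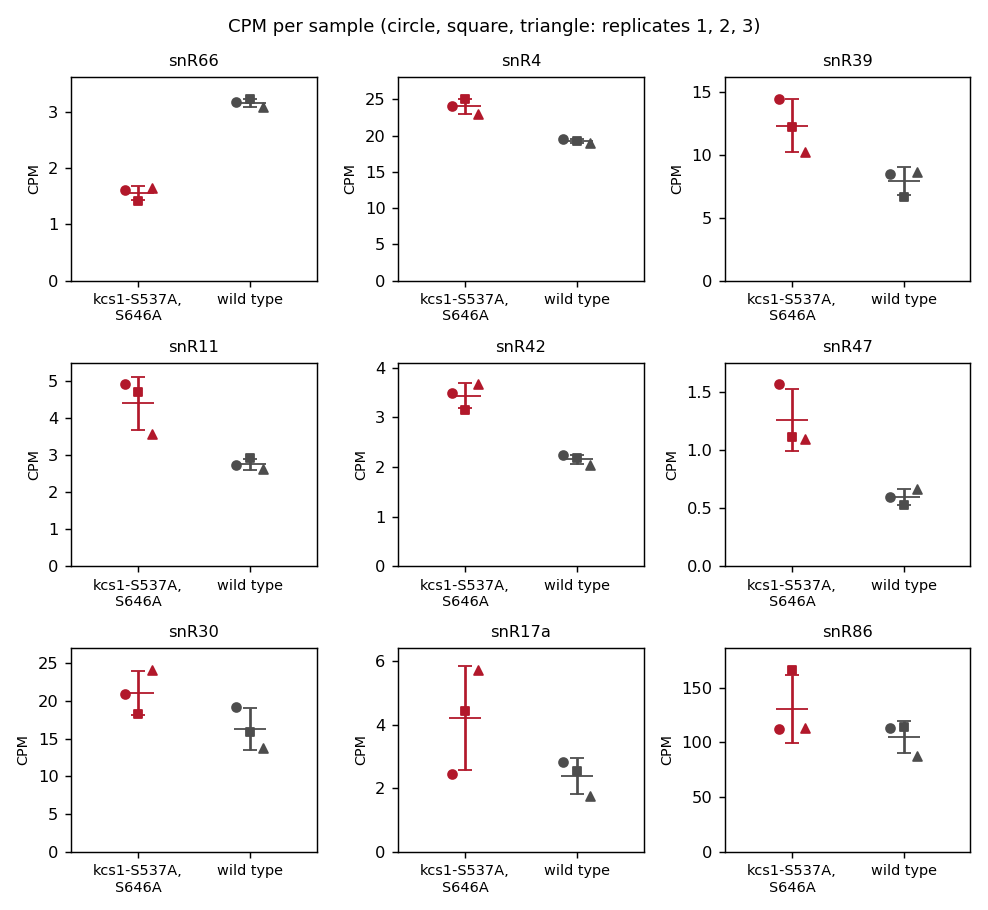
CPM in each sample (y axes from 0, one panel per gene) for the 8 snoRNA rows with an unadjusted p below 0.05 and for snR86, with *kcs1*-S537A,S646A samples in red on the left and wild-type samples in grey on the right, circles, squares and triangles for replicates 1, 2 and 3, and the mean and SD as bars. The strains are separate for snR66 (lower), snR4, snR39, snR11, snR42 and snR47 (higher), and overlap for snR30, snR17a and snR86.

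The intronic members were set beside their hosts, from whose transcripts they are cut. The 8 hosts had between 313.9 and 3506 FPKM and were not called, with log2 fold changes of -0.28 (*NOG2*) to 0.39 (*IMD4*). *RPL7A*, the host of snR39, had 1542, 1004 and 1110 CPM in *kcs1*-S537A,S646A samples, against 1034, 1046 and 1049 CPM in wild-type samples. These overlapped, with a log2 fold change of 0.22 (SE 0.16), while that of snR39 was 0.64 (SE 0.17). *IMD4*, an IMP dehydrogenase paralog that hosts snR54, had 1006, 833 and 790 CPM in *kcs1*-S537A,S646A samples, against 699.6, 671.2 and 638.4 CPM in wild-type samples (log2 fold change 0.39, SE 0.12, adjusted p = 0.12 by edgeR). snR54, a guide of rRNA methylation, had 2.61, 4.93 and 4.85 CPM in *kcs1*-S537A,S646A samples, against 5.73, 4.08 and 4.04 CPM in wild-type samples (log2 fold change -0.15, SE 0.28). The *IMD4* values did not overlap between the strains, whereas those of snR54 did. For snR24 in *ASC1* the log2 fold changes were 0.51 (SE 0.33) for the snoRNA and 0.23 (SE 0.17) for the host, and for snR44 in *RPS22B* they were 0.33 (SE 0.17) and 0.08 (SE 0.13). snR18 in *EFB1* had 0.12 (SE 0.26) with 0.17 (SE 0.12) in the host, and snR38 in *TEF4* had -0.12 (SE 0.39) with 0.03 (SE 0.09). The difference between a member and its host was not tested.

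**Figure D5:**
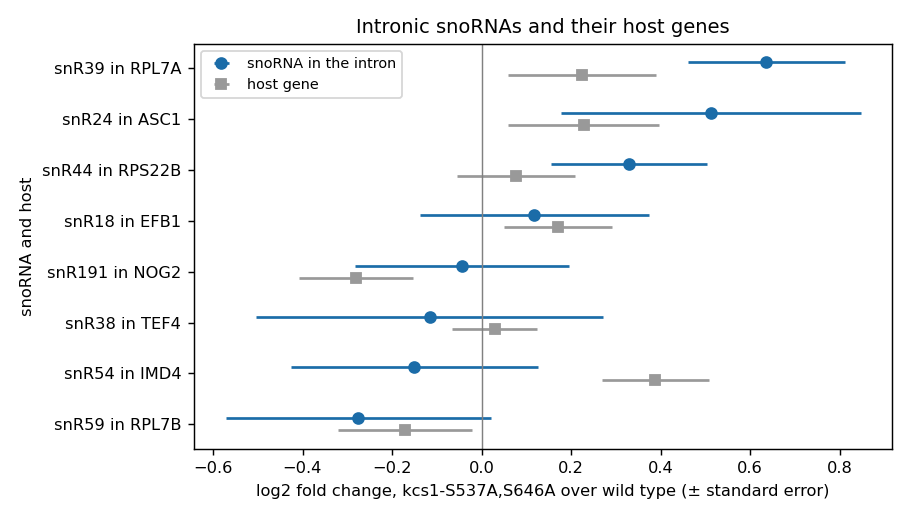
Log2 fold change of *kcs1*-S537A,S646A over wild type (x axis) with its standard error (bars) for the 8 intronic snoRNAs (blue circles) and their host genes (grey squares), one pair per row. snR39 lies at 0.64 with its host *RPL7A* at 0.22, and snR54 lies at -0.15 with its host *IMD4* at 0.39.

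Members of a polycistronic transcript come from shared precursors, and their mean FPKM differed in these libraries. The differences within a transcript were not tested. In the transcript of chromosome XIII that holds 7 box C/D guides, in the order snR78, snR77, snR76, snR75, snR74, snR73 and snR72, the FPKM values in *kcs1*-S537A,S646A samples were 26.5, 14.03, 25.4, 8.78, 7.95, 1.71 and 5.55, against 18.5, 9.07, 19.1, 7.63, 8.85, 1.15 and 7.36 in wild-type samples. snR73 was the lowest in both strains, with 7, 4 and 0 counts in *kcs1*-S537A,S646A samples, against 3, 2 and 2 in wild-type samples, and was not tested. It shares 81 of its 106 bases with *YMR013W-A* on the same strand, which had 0 counts in each sample, so that reads common to both may be missing from its level. The log2 fold changes of the 6 others were 0.51, 0.61, 0.41, 0.21, -0.14 and -0.42 in the same order, with SEs of 0.23 to 0.51. None of these members was called.

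In the transcript of chromosome XII with snR57, snR55 and snR61, the log2 fold changes were -0.30, -0.27 and -0.37. snR57 had 41, 106 and 44 counts in *kcs1*-S537A,S646A samples, against 69, 52 and 94 in wild-type samples, and snR61 had 21, 67 and 16 counts, against 33, 49 and 40. In both, *kcs1*-S537A,S646A replicate 2 was the highest sample of its strain and the groups overlapped. In the transcript of chromosome XVI with snR41, snR70 and snR51, the log2 fold changes were -0.02, 0.04 and 0.18, and levels in *kcs1*-S537A,S646A samples were 71.6, 50.2 and 21.1 FPKM, against 72.7, 48.8 and 18.6 FPKM in wild-type samples. snR190, which precedes U14 in a transcript of chromosome X, had 8, 5 and 32 counts in *kcs1*-S537A,S646A samples, against 12, 6 and 17 in wild-type samples (log2 fold change 0.24, SE 0.69).

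A list of 49 genes of snoRNP proteins, snoRNP assembly and snoRNA transcription ends, processing and decay was set beside the members, and all 49 were tested. The 4 core proteins of box C/D snoRNPs (*NOP1*, *NOP56*, *NOP58* and *SNU13*) and the 4 of box H/ACA snoRNPs (*CBF5*, *GAR1*, *NHP2* and *NOP10*) had log2 fold changes of 0.06 to 0.21. *NOP58*, whose product binds box C/D RNA, had 642.6, 481.1 and 644.6 CPM in *kcs1*-S537A,S646A samples, against 499.8, 492.0 and 539.5 CPM in wild-type samples. The values of each of the 8 overlapped between the strains, and none had an unadjusted p below 0.05 by edgeR.

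Of the 49, edgeR called 1 higher and 3 lower, against 0.986% and 4.67% of all genes. DESeq2 called 5, but it also called more of all genes than edgeR, so that the edgeR shares are no background for that count. The median log2 fold change was 0.06 with 36 of 49 above 0, against 53.2% of all genes. *TAH1*, a cofactor of Hsp90 in box C/D snoRNP assembly, had 29.7, 32.3 and 28.1 CPM in *kcs1*-S537A,S646A samples, against 23.4, 21.8 and 21.5 CPM in wild-type samples. It rose by 0.43 on the log2 scale (SE 0.09, adjusted p = 0.036 by edgeR). The adjusted p of *TAH1* by edgeR was 0.105 with the offset and 0.0438 to 0.175 with a sample left out, and among these the call remained only when *kcs1*-S537A,S646A replicate 3 was left out. It was also lost with library totals as the scaling (0.134) and without chromosomes XIV and VI (0.121). *PIH1*, whose product binds Tah1, was not called and had 26.4, 25.4 and 25.9 CPM in *kcs1*-S537A,S646A samples, against 30.5, 30.9 and 31.3 CPM in wild-type samples (log2 fold change -0.26, adjusted p = 0.11 by edgeR). *NAF1*, a box H/ACA assembly factor on chromosome XIV, was at -0.45 (adjusted p = 0.10 by edgeR). The values of *PIH1* and *NAF1*, which were named outside the rule for named genes, did not overlap between the strains. Among the other listed genes not called by edgeR, the values of *RRP9*, *RAI1*, *AIR2* and *SKI6* (higher) and of *MPP6* and *PAP1* (lower) did not overlap either. Of all genes tested, 11.8% were higher and 14.8% lower without overlap. The 3 lower genes were all on chromosome XIV. *NRD1*, whose product ends transcription of independent snoRNA genes, had 61.8, 51.3 and 61.1 CPM in *kcs1*-S537A,S646A samples, against 89.2, 92.0 and 83.8 CPM in wild-type samples, and fell by 0.61 (adjusted p = 0.0099 by edgeR).

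*TRF5*, a noncanonical poly(A) polymerase that tags nuclear RNA for the exosome, had 77.4, 69.6 and 78.9 CPM in *kcs1*-S537A,S646A samples, against 101.8, 102.9 and 110.4 CPM in wild-type samples, and fell by 0.48 (adjusted p = 0.013 by edgeR). *CSL4*, a subunit of the exosome, had 114.0, 100.2 and 94.0 CPM in *kcs1*-S537A,S646A samples, against 150.6, 145.9 and 136.1 CPM in wild-type samples, and fell by 0.49 (adjusted p = 0.021 by edgeR). All 4 were separate between the strains. The falls of *NRD1*, *TRF5* and *CSL4* were close to the chromosome's median of -0.52, and none of the 49 genes was called with the offset for the chromosome. With any wild-type sample left out, *TRF5* and *CSL4* were not called, with adjusted p-values by edgeR of up to 0.0764 and 0.117, and *NRD1* was called without wild-type replicate 3 (0.0461) but not without wild-type replicate 1 or 2 (0.0605 and 0.069). Without *kcs1*-S537A,S646A replicate 3, *CSL4* was also not called (adjusted p = 0.0564 by edgeR). The partners of Nrd1 in the termination complex, *NAB3* and *SEN1*, on other chromosomes, had log2 fold changes of 0.01 and 0.02.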

How the data were processed

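The authors deposited read counts per gene without normalization, and FPKM values in which the authors divided counts by gene length and a depth per sample. Submitters' processing notes name HISAT2 2.0.5 and featureCounts 1.5.0-p3. The genome build and the strand setting are not given in the sources used here. The authors' FPKM per strain were not used. The 6 samples were grouped by the labels. Counts were analysed with edgeR 4.0.16 in R 4.3.3: filterByExpr with a minimum of 10 counts (6083 genes), TMM, glmQLFit and glmQLFTest, 2-sided, Benjamini-Hochberg adjustment over all genes, threshold 0.05. Standard errors come from the log2 fold change over the root of edgeR's F. The p-values measure the spread between colonies, and total counts of 17950923 to 22701020 leave counting error large for rows with few counts. That spread was unequal. The chi-square per degree of freedom between 2 samples was 9.0 to 16.9 within wild type and 71.6 to 142.3 within *kcs1*-S537A,S646A. The fit used a dispersion shared by both strains. Sequences were read from R64 (RefSeq). The steps were tested on simulated data.

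The members, the lists and the rule for named genes were chosen with earlier results of these data known. Some genes, among them snR11, snR82, *PIH1* and *NAF1*, were named outside this rule. Named were members with an adjusted p below 0.05, the 5 highest and 5 lowest log2 fold changes, the 5 highest mean CPM, members on chromosomes XIV and VI, in introns and in clusters, snR17a, snR17b, snR128, snR30, snR10, snR4, snR45 and snR52, the 8 core proteins, listed genes with an adjusted p below 0.05, and neighbours of named members. Alternatives were other size factors and filters, DESeq2 1.42.0, limma 3.58.1 (voom, and trend on log2(FPKM + 1) and log2(FPKM + 0.1)), a replicate block, fits without or with an offset for chromosomes XIV and VI, and each sample left out.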

Additional observations from a re-analysis of the deposited data

How the results depend on the processing

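The reference values were 344 genes, 1 member and 4 listed genes called, 8 members at an unadjusted p below 0.05 and a member median of 0.17. DESeq2 called 579 of 7126 genes and 2 of 77 members (snR39 and snR66). With limma-trend on FPKM, 5 of 65 members were called with either pseudocount (snR4, snR11, snR42, snR47 and snR66). The number of all genes called by limma-trend is not given. Without chromosomes XIV and VI, 16 genes, 0 members and 0 listed genes were called, and with the offset for these chromosomes 15, 0 and 0. For the members, 6 and 8 then had an unadjusted p below 0.05. Leaving out each sample in turn gave 84 to 481 genes, 0 to 2 members and 0 to 4 listed genes called, where the lowest counts of genes (84 to 122) and the counts of 0 members were those without a wild-type sample, and the 2 members without *kcs1*-S537A,S646A replicate 1 were snR17a and snR66. The causes were not tested. The member median stayed above 0, at 0.08 to 0.25, in every alternative run, and snR66 kept its sign and an unadjusted p below 0.05 in all 16 that tested it (-1.08 to -0.50).

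The same-numbered samples deviated with correlations of -0.14, 0.03 and 0.35, and differently numbered ones with correlations of -0.262 to 0.265. So few correlations cannot decide whether the numbers pair the samples. With a replicate block, 282 genes and 0 members were called, and the adjusted p of snR66 by edgeR was 0.065. *TAH1* (0.0649) and *SSN8* (0.0507) also lost their calls with the block.

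Directions turned for members near 0 and for members with large standard errors, such as snR190 (SE 0.69) and snR75 (SE 0.47). With library totals as the scaling, which moved the median of all genes to -0.05, snR70 was at -0.0219 and snR128 at -0.0406. snR190 was at -0.10 in limma-voom and at -0.0157 and -0.088 in limma-trend with pseudocounts of 1 and 0.1. With the offset, snR191 was at 0.48 and snR49 at 0.35. With samples left out, the log2 fold changes ranged from -0.0352 to 0.15 for snR70, -0.19 to 0.25 for snR128, -0.92 to 0.67 for snR190, -0.29 to 0.11 for snR191, -0.41 to 0.0379 for snR49, -0.30 to 0.0834 for snR54, -0.33 to 0.17 for snR38, -0.0174 to 0.35 for snR84, -0.0749 to 0.37 for snR18, -0.0786 to 0.41 for snR51, -0.12 to 0.11 for snR41, -0.15 to 0.56 for snR75 and -0.53 to 0.0606 for snR74.

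Few counts limit these results, since 22 of the 77 rows had fewer than 10 counts in some sample, and poly(A) selection, cDNA length selection and the single strain per allele apply to every value.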
